A study of Homo sapiens with 5 samples.

Results

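Cytosolic ribosomal protein genes were taken from the deposited table by symbol, as RPL or RPS followed by a number with an optional A, L, X or Y1 ending, together with RPLP0, RPLP1, RPLP2 and RPSA. RPS27L, the S6 kinase genes and pseudogenes were left out. Of 26364 listed genes, 81 met the rule, 49 for the large subunit and 32 for the small subunit. The question here was whether the mRNA levels of these genes differed after depletion of the histone methyltransferase NSD2, and whether the large and the small subunit differed from each other. The libraries were poly(A) mRNA-seq of IMR-90 cells, a line of normal human lung fibroblasts, collected 24 hr after siRNA transfection. There were 2 libraries of Ctr-KD cells, which received a control siRNA (Ctr-1 and Ctr-2), and 3 libraries of NSD2-KD cells, which received the siRNA NSD2-1, NSD2-2 or NSD2-3. Since the siRNA differs from library to library in NSD2-KD cells, its effect and the replicate spread cannot be told apart there, and all 5 libraries come from the same cell line. Values are normalized counts, that is, reads on a gene divided by a size factor of the library. They are levels relative to the other mRNAs of a library, so a change per cell shared by most mRNAs would not show.

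The cytosolic ribosome reads mRNA and joins amino acids into protein. Its large subunit holds the peptidyl transferase center and its small subunit decodes the mRNA, and each is built in the nucleolus from ribosomal RNA and the proteins described here. Their genes are expressed at high levels in growing cells, and most of their mRNAs begin with a C followed by a run of pyrimidines, the 5′ TOP element, through which mTOR signalling controls their translation.

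The start of these genes is shown because a run of C and T there is the sequence feature that the members shared and that the rule did not use. RefSeq promoters (GRCh38.p14) were matched to 64 members by symbol. The longest run of C and T touching the 5 bases on either side of the start had a median of 11 bases in these members and 4 bases over all 27305 promoters. A run of at least 7 bases was found in 50 of the 64 members (78.1%) and in 15.7% of all promoters, and a run of at least 10 bases in 42 members (65.6%) and 6.06% of all promoters. The windows below hold 10 bases before the annotated start and 20 bases from it, located in GRCh37 by exact match. Capitals mark the run. RPLP0, RPS6, RPL34, RPL24, RPS19, RPL39 and RPL41 are shown as the members whose values are given in most detail, and RPL11 and RPS27A as members with a short run at the annotated start.
RPLP0, chr12:120638895-120638924, minus strand: ggcgcgaggCCCTTCTCTCgccaggcgtcc
RPS6, chr9:19380215-19380244, minus strand: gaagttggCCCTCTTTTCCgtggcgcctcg
RPL34, chr4:109541722-109541751, plus strand: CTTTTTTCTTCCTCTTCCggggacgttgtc
RPL24, chr3:101405543-101405572, minus strand: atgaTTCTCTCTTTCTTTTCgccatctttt
RPS19, chr19:42364315-42364344, plus strand: ccccgtcgTTCCCTTTCCCCTggctggcag
RPL39, chrX:118925574-118925603, minus strand: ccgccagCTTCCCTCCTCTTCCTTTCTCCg
RPL41, chr12:56510407-56510436, plus strand: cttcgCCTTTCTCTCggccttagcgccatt
RPL11, chr1:24018259-24018288, plus strand: cctggcccataaggCCCTCggccggaagct
RPS27A, chr2:55459029-55459058, plus strand: agtgacacacaagaCCCagactcttcccta
A run is a description of the annotated start and not a measurement of where transcription began in these cells.

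The libraries held between 2473691 and 2845063 reads on genes. NSD2 itself, listed as WHSC1, was at 463 and 443 in Ctr-KD cells and at 90.2, 81.9 and 87.9 in NSD2-KD cells, lower by a log2 difference of -2.37, with an adjusted p = 0.000465 (limma, 11312 tested genes). Without Ctr-1 or without Ctr-2 the difference was -2.34 or -2.41 and its limma adjusted p = 0.0928 or 0.0759, so this call needs both Ctr-KD libraries. Between Ctr-1 and Ctr-2 the spread was little beyond counting noise, with a chi-square of 1.05 per degree of freedom, against 3.87 to 5.29 in the other pairs of libraries. The study's methods call the Ctr-KD libraries biological replicates, but p-values measure only the spread between these libraries, which in Ctr-KD cells may be technical. All 8 fibroblast markers were detected. Of 3 endothelial markers, PECAM1 and CDH5 were at 0 and VWF had 2 to 6 reads per library, and of 3 leukocyte markers, PTPRC and CD3E were at 0 and CD14 had 0 to 2 reads. Of 4 epithelial markers, EPCAM, CDH1 and KRT19 had 0 to 3 reads, whereas KRT18 was at 93.4 and 80.2 in Ctr-KD cells and at 87.4, 76.5 and 154 in NSD2-KD cells. In bulk libraries, fewer cells of a type and less RNA per cell cannot be told apart.

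Ribosomal protein genes were among the most abundant mRNAs in both groups. A mean of at least 10 normalized counts, the minimum for testing, was reached by 76 of the 81 members, 47 of the large and 29 of the small subunit. Their Ctr-KD means ran from 22.8 for RPL39L to 2706 for RPL13A, with a median of 756. RPL39L stood apart from the rest, since the next lowest tested member, RPL39, had a Ctr-KD mean of 186. Over all 5 libraries the median level of the tested members was 762, against 86.3 over all tested genes. Per kilobase of transcript, the highest levels were 2358 for RPL13A, 2324 for RPL13, 2179 for RPL8, 2171 for RPS2 and 2168 for RPS19, as means of the 5 libraries. The lowest levels per kilobase among tested members were 31.0 for RPL39L, 55.6 for RPL37 and 126 for RPL14. For RPL37 and RPL14 that value rests on annotated transcripts of 7573 and 7136 bases, the shortest with the whole coding sequence. Most members differed little between libraries of a group, with a median SD of 2.61% of the mean in Ctr-KD cells (n = 2) and of 5.12% in NSD2-KD cells (n = 3). In NSD2-KD cells, 4 tested members had an SD above 10% of the mean, namely RPL39L, RPL34, RPS6 and RPL36.

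**Figure D1:**
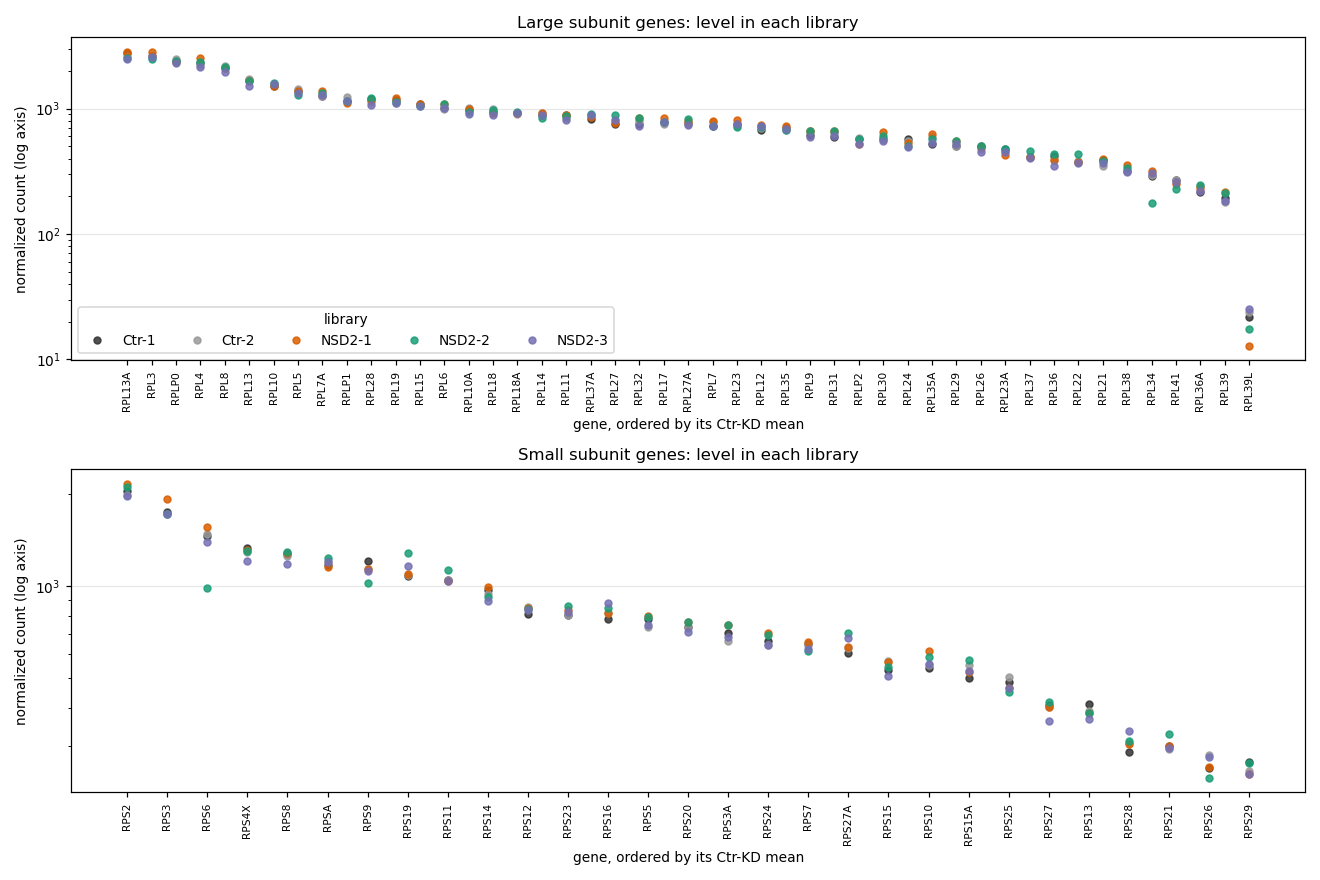
Normalized count (log axis) of each tested ribosomal protein gene in the 5 libraries, with the large subunit above, the small subunit below and genes ordered by their Ctr-KD mean. The 5 points of most genes lie on top of each other, and the points set apart are RPL34 and RPS6 with NSD2-2 (green, 176 and 982 normalized counts) and RPL39L.

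The measured mRNA levels of the ribosomal protein genes were close between NSD2-KD and Ctr-KD cells. No member passed the threshold in either direction (0 of 76 lower and 0 of 76 higher at an adjusted p under 0.05 from limma), where 0.053% of all tested genes were called lower and 0.0354% higher. Without adjustment, 0 members had a limma p under 0.05, against 4.99% of all tested genes lower and 4.19% higher. On recovered reads, edgeR called 0 members, against 0.0972% of all tested genes lower and 0.0442% higher, DESeq2 called 0, against 0.38% and 0.0972%, and limma-voom called 0, against 0.0619% and 0.0265%. Each of these tools also had 0 members with an unadjusted p under 0.05. The shares of all tested genes lower and higher at that level were 5.25% and 4% with edgeR, 3.09% and 1.57% with DESeq2, and 5.58% and 3.68% with limma-voom. The smallest adjusted p of a member was 0.705 from limma, for RPL24. With so few genes called in the whole table by these fits, the count of 0 members is close to the background, and the size of the differences is given next. The paper reports more genes called in both directions, from its own DESeq2 comparison.

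The differences were small and lay on both sides of 0. The log2 difference between NSD2-KD and Ctr-KD cells was negative for 33 members (43.4%, against 51.5% of all tested genes) and positive for 43 (56.6%, against 48.5%). It lay within 0.1 of 0 for 63 members (82.9%), against 33.8% of all tested genes, within 0.3 for 75, all except RPL39L, against 75.5% of all tested genes, and within 0.5 for all 76, against 90.5%. The 95% confidence interval of the difference lay wholly within 0.3 of 0 for 51 members (67.1%, against 4.98% of all tested genes). It lay within 0.5 of 0 for 73 members (96.1%, against 32% of all tested genes), the exceptions being RPL39L, RPS6 and RPL34. The median interval, which is not adjusted for the number of genes, reached 0.217 to either side. A shift in 1 member smaller than that was mostly not detectable with these libraries. The adjusted threshold asks for a larger shift, and RPS27L, outside the members, did not pass it at 0.44 (adjusted p = 0.31 from limma). The SD of the differences over members was 0.080, against 0.317 over all tested genes, whose lower levels also bring more counting error. The median standard error was 0.095 for members and 0.193 for all tested genes. The shares within 0.1, 0.3 and 0.5 of 0, for differences and for intervals, are therefore not matched for level. The 8 fibroblast markers, at a median level of 11239, also had an SD of 0.080. For 18 elongation factors and other TOP mRNAs, described below, it was 0.196.

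The medians of both subunits were near that of all genes. The median log2 difference was 0.01 for the 47 large subunit genes and 0.02 for the 29 small subunit genes, beside -0.01 for all tested genes. Within the large subunit 26 members had a positive and 21 a negative difference, and within the small subunit 17 had a positive and 12 a negative difference. The 3 NSD2-KD libraries all lay below both Ctr-KD libraries for 8 members (10.5%, against 13.9% of all tested genes), RPL13, RPL24, RPL41, RPLP1, RPLP2, RPS9, RPS13 and RPS25. They all lay above for another 8 (10.5%, against 13.8%), RPL7A, RPL12, RPL29, RPS10, RPS16, RPS19, RPS23 and RPS27A. Both shares were below those of all tested genes.

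**Figure D2:**
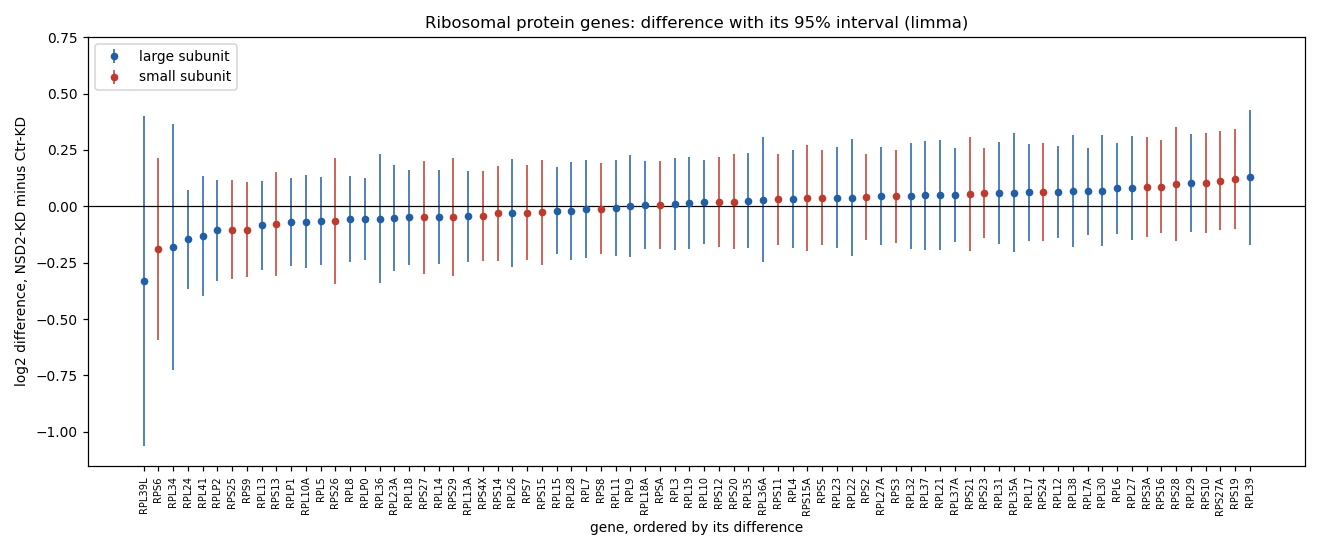
Log2 difference between NSD2-KD and Ctr-KD cells for each of the 76 tested ribosomal protein genes, ordered by size, with vertical lines for the 95% confidence interval from limma and colors for the subunit. All intervals include 0, and the 3 longest belong to RPL39L, RPS6 and RPL34 at the left end.

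Among large subunit genes, the proteins of the stalk, which recruits and activates the translation factors, had small negative differences. RPLP0, also used under the name 36B4 as a reference gene for qRT-PCR, had 2390 and 2513 normalized counts in Ctr-KD cells and 2340, 2403 and 2328 in NSD2-KD cells. The groups overlapped, and the log2 difference was -0.06 (95% interval -0.24 to 0.12). RPLP1 had 1158 and 1228 against 1114, 1147 and 1146, a log2 difference of -0.07. RPLP2 had 574 and 585 against 526, 570 and 520, a log2 difference of -0.11 (standard error 0.10, adjusted p = 0.80 from limma). For RPLP1 and RPLP2 the groups did not overlap, but neither passed the threshold.

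RPL5 and RPL11, which form the 5S particle and bind MDM2 when free of ribosomes, were within 0.1 of 0. RPL5 had 1377 and 1432 in Ctr-KD cells against 1393, 1298 and 1335 in NSD2-KD cells, and RPL11 had 886 and 848 against 898, 879 and 814. The log2 differences were -0.07 and -0.01, and both genes overlapped between the groups.

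RPL24, which joins the subunits by a bridge, had the smallest p-value of all members. Its normalized counts were 574 and 557 in Ctr-KD cells (565 ± 12, SD, n = 2) and 531, 506 and 495 in NSD2-KD cells (511 ± 18.5, SD, n = 3). All 3 NSD2-KD libraries lay below both Ctr-KD libraries, at 94.0%, 89.5% and 87.6% of the Ctr-KD mean, with a log2 difference of -0.15 (95% interval -0.37 to 0.07, adjusted p = 0.705 from limma). RPL41, the smallest ribosomal protein, had 272 and 267 against 251, 228 and 260, a log2 difference of -0.13. RPL13, the second highest member per kilobase, had 1685 and 1741 against 1676, 1654 and 1519, a log2 difference of -0.09. For both, all 3 NSD2-KD libraries lay below both Ctr-KD libraries, and neither passed the limma threshold.

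The largest positive differences in the large subunit were those of RPL39 and RPL29. RPL39, a small protein of the peptide exit tunnel, had 192 and 180.0 against 214, 214 and 184, a log2 difference of 0.13 (95% interval -0.17 to 0.43), and the groups overlapped. RPL29 had 508 and 505 against 554, 556 and 523, a log2 difference of 0.10. All 3 NSD2-KD libraries of RPL29 lay above both Ctr-KD libraries. RPL3 and RPL10, which lie near the peptidyl transferase center and the tRNA sites, had log2 differences of 0.01 and 0.02. RPL3 was at 2621 and 2582 against 2839, 2473 and 2562, and RPL10 at 1509 and 1581 against 1529, 1590 and 1573, with overlap in both. RPL13A and RPL8, among the highest per kilobase, had log2 differences of -0.04 and -0.06, and RPL14 and RPL37 of -0.05 and 0.05, all with overlap between groups.

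Among small subunit genes, RPS19, a protein required to mature the small subunit and mutated in Diamond-Blackfan anemia, had the largest positive difference. Its normalized counts were 1076 and 1087 in Ctr-KD cells (1081 ± 8.40, SD, n = 2) and 1093, 1281 and 1164 in NSD2-KD cells (1179 ± 95.1, SD, n = 3). All NSD2-KD libraries lay above both Ctr-KD libraries, with NSD2-1 close to them, and the log2 difference was 0.12 (95% interval -0.10 to 0.34, adjusted p = 0.767 from limma). RPS27A, made as a fusion with ubiquitin, had 607 and 630 against 632, 701 and 675, a log2 difference of 0.11. RPS10 had 538 and 552 against 616, 589 and 555, and RPS28 had 287 and 308 against 305, 311 and 338, each with a log2 difference of 0.10. RPS28 overlapped between the groups, whereas RPS27A and RPS10 did not. Their nearest values were close, however, at 630 and 632 for RPS27A and 552 and 555 for RPS10.

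RPS25, RPSA, RPS4X and RPS2 had smaller or negative differences. RPS25 had 485 and 505 against 466, 452 and 464, a log2 difference of -0.10, with all 3 NSD2-KD libraries below both Ctr-KD libraries. RPSA, which is also known as a precursor of the laminin receptor, had 1171 and 1208 against 1155, 1234 and 1198, a log2 difference of 0.01. RPS4X, encoded on the X chromosome, had 1329 and 1295 against 1313, 1305 and 1205, a log2 difference of -0.04. RPS2 had 2048 and 1985 against 2150, 2106 and 1969, a log2 difference of 0.04. RPSA, RPS4X and RPS2 overlapped between the groups.

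The negative differences of RPS6 and RPL34 rested on the library NSD2-2. RPS6, the ribosomal protein that S6 kinases phosphorylate, lies at chr9:19375713-19380234 of GRCh37 on the minus strand. It had 1451 and 1482 normalized counts in Ctr-KD cells (1467 ± 22.3, SD, n = 2) while NSD2-KD cells had 1558 (NSD2-1), 982 (NSD2-2) and 1392 (NSD2-3) (1311 ± 296, SD, n = 3). NSD2-2 alone was low, at 67.0% of the Ctr-KD mean, and NSD2-1 and NSD2-3 were at 106% and 94.9%. The 899 reads behind the NSD2-2 value give an exact Poisson interval of 919 to 1048 normalized counts, which lies wholly below the intervals of the other 4 libraries. The groups overlapped, with a log2 difference of -0.19 and a limma adjusted p = 0.805 (95% interval -0.59 to 0.21). It was 0.0059 without NSD2-2.

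RPL34, a large subunit protein at chr4:109541725-109551568 on the plus strand, had the same pattern. It had 290 and 294 normalized counts in Ctr-KD cells (292 ± 3.27, SD, n = 2) while NSD2-KD cells had 318 (NSD2-1), 176 (NSD2-2) and 305 (NSD2-3) (266 ± 78.6, SD, n = 3). NSD2-2 was at 60.2% of the Ctr-KD mean and the other NSD2-KD libraries lay above both Ctr-KD libraries. The 161 reads behind the NSD2-2 value give an exact Poisson interval of 150 to 205, below those of the other 4 libraries. The groups overlapped, with a log2 difference of -0.18 and a limma adjusted p = 0.87 (95% interval -0.73 to 0.37), which was 0.09 without NSD2-2. No stretch of 150 bases or more of either transcript was identical to another place in GRCh37. RPS6 overlaps an annotated gene on the opposite strand, and the part of its reads in the RPS6 value was not tested. With 1 library per siRNA, neither value has a replicate, and these intervals cover counting error only.

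Over all members, the NSD2-KD libraries differed in direction by small amounts. Each siRNA has 1 library, so an offset of the library and an effect of the siRNA cannot be told apart. Members counted in the same library are not replicates. NSD2-1 lay above the Ctr-KD mean for 50 of 76 members (50.8% of all tested genes did), NSD2-2 for 47 (51.5%) and NSD2-3 for 24 (50.6%). The median log2 difference from the Ctr-KD mean was 0.03 with NSD2-1, 0.04 with NSD2-2 and -0.03 with NSD2-3. Differences beyond 0.5 below the Ctr-KD mean were limited to RPL39L with NSD2-1 (1 member, against 9.3% of all tested genes), and to RPS6 and RPL34 with NSD2-2 (2 members, against 12.3%). There were 0 such members with NSD2-3, against 9.43% of all tested genes. More than 0.5 above the Ctr-KD mean there were 0 members with each siRNA, against 5.28%, 6.6% and 5.79% of all tested genes. These shares are not matched for level. The median level was 762 for tested members and 86.3 for all tested genes, whose lower levels bring more counting error.

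**Figure D3:**
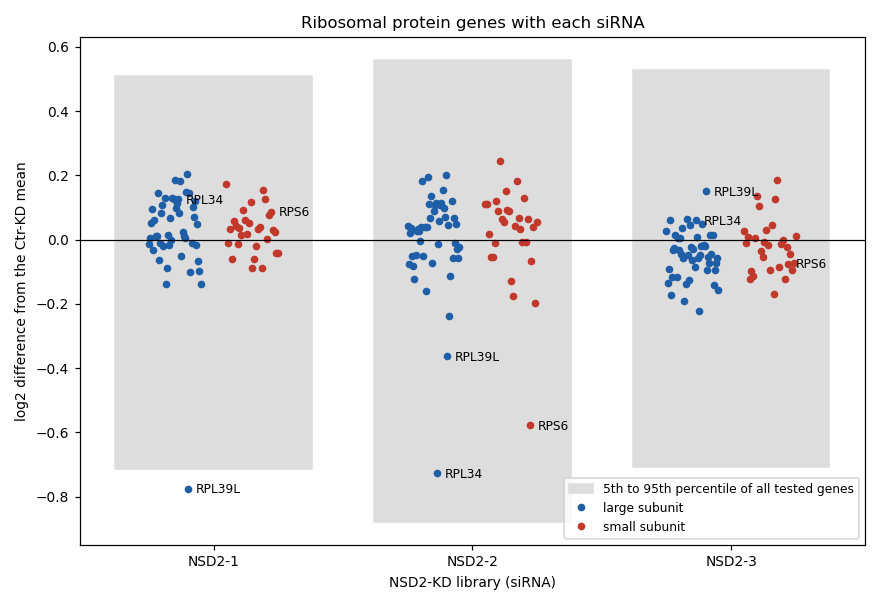
Log2 difference from the Ctr-KD mean of each tested ribosomal protein gene in the 3 NSD2-KD libraries, with colors for the subunit and grey bars for the range from the 5th to the 95th percentile of all tested genes. Nearly all members lie in a narrow band around 0, and RPL39L with NSD2-1 and RPS6 and RPL34 with NSD2-2 lie furthest below it.

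Summed over the members, ribosomal protein genes took a similar share of the normalized counts in both groups. The share was 2.53% and 2.52% in Ctr-KD cells (2.53% ± 0.00524, SD, n = 2) and 2.63%, 2.48% and 2.45% in NSD2-KD cells (2.52% ± 0.0917, SD, n = 3). By share, the Ctr-KD libraries lay between those of the NSD2-KD cells, with NSD2-1 above and NSD2-2 and NSD2-3 below. The place of NSD2-2 depends on the measure. Its summed normalized count over the members, 67133, was above 66778 (Ctr-1) and 66980 (Ctr-2). Its total over all genes was also larger, 2702028 against 2638167 (Ctr-1) and 2653903 (Ctr-2). Large subunit genes took 1.63% in both Ctr-KD libraries and 1.69%, 1.6% and 1.57% in NSD2-KD cells. Small subunit genes took 0.903% and 0.896% against 0.937%, 0.887% and 0.887%. The ratio of the large to the small subunit sum was 1.80 and 1.82 in Ctr-KD cells (1.81 ± 0.00863, SD, n = 2) and 1.80, 1.80 and 1.77 in NSD2-KD cells (1.79 ± 0.0202, SD, n = 3). On the log2 scale this is 0.86 ± 0.0069 against 0.84 ± 0.016 (SD), and the difference between the means was no larger than the SD of the NSD2-KD libraries. The 5 members with the most reads held 18.1% of the sum. These ratios count reads, so longer transcripts weigh more in them, and they are not a ratio of molecules.

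**Figure D4:**
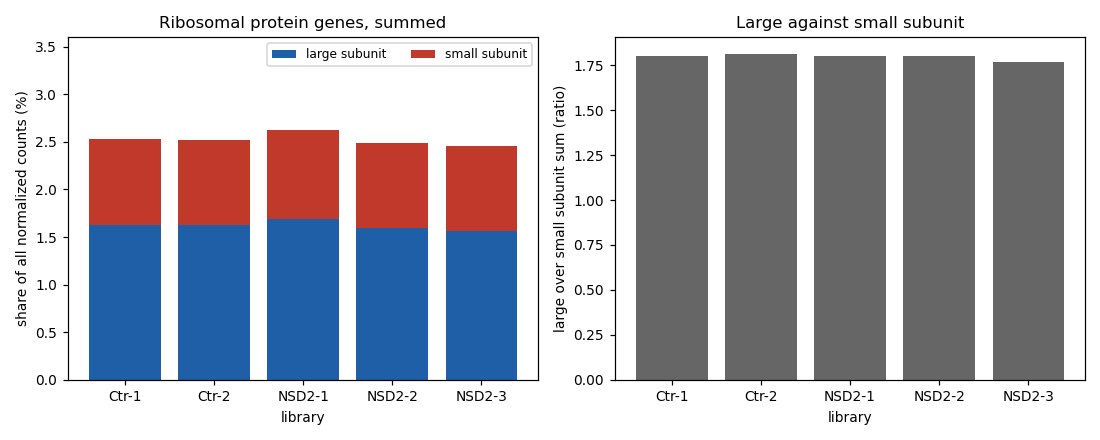
Left, share of all normalized counts (%) on large and small subunit genes in each library, stacked. Right, ratio of the large to the small subunit sum in each library, between 1.77 and 1.82 in all 5.

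The paralogs known from other tissues were low or not detected. RPL3L, known from muscle, had 0 reads in all 5 libraries, and RPL10L, known from testis, had 1 read in NSD2-3 and 0 in the rest. A count of 0 allows up to 3 reads, which is between 2.76 and 3.28 normalized counts in these libraries. RPL39L, the paralog of RPL39 with high levels in testis, was detected at 21.9 and 23.7 in Ctr-KD cells and 12.9, 17.5 and 25.4 in NSD2-KD cells. NSD2-1 and NSD2-2 lay below both Ctr-KD libraries and NSD2-3 above, and the log2 difference was -0.33 (95% interval -1.06 to 0.40, adjusted p = 0.814 from limma). It was -0.11 without NSD2-1 and -0.57 without NSD2-3. Per kilobase its Ctr-KD level was 34.9.

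RPS18, a small subunit protein that every ribosome carries, was also near 0. RPS18 (chr6:33239852-33244288) had 0 and 2 reads in Ctr-KD cells and 1 in each NSD2-KD library. Stretches of at least 150 bases identical to another place in GRCh37 covered 39.5% of its transcript, and the authors counted uniquely mapped reads. Whether this set the low counts was not tested, and no difference between the groups was read from them. The other members below the filter were counted and are not described.

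Identical copies touched many other members. Among all members, 38 had such an identical stretch elsewhere in GRCh37, and in 18 it covered over 50% of the transcript, in RPL21 all of it. Rows for 31 pseudogenes named after members were listed, 25 of them with a read, and held between 4.37% and 4.63% of the summed count of the members. The RPL13A pseudogene RPL13AP5 alone had 2545 and 2438 in Ctr-KD cells and 2601, 2378 and 2289 in NSD2-KD cells, close to the 2759 and 2652 against 2824, 2557 and 2497 of RPL13A. Their ratio was between 0.917 and 0.930 in all 5 libraries. Of the tested members, 19 overlap another annotated gene, 8 on the same and 11 on the opposite strand, and reads from the overlap cannot be assigned with certainty. The levels of these members are therefore uncertain, while each was counted in the same way in both groups.

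Ribosomal proteins listed under other names had differences in the range of the members. FAU, which encodes RPS30 fused to a ubiquitin-like protein, was at 278 and 246 against 271, 315 and 266, a log2 difference of 0.11, which ran from 0.02 without Ctr-2 to 0.20 without Ctr-1. GNB2L1, the small subunit protein RACK1, had a log2 difference of -0.05. Of the near paralogs left out by the rule, RPL36AL and RPL7L1 had log2 differences of -0.10 and 0.00. RPL22L1 had 108 and 132 against 135, 67.7 and 97.6, a log2 difference of -0.30, which ran from -0.54 without NSD2-1 to -0.05 without NSD2-2. RPL26L1 had 48.6 and 36 against 52.4, 50.2 and 56.6, a log2 difference of 0.34, which ran from 0.12 without Ctr-2 to 0.55 without Ctr-1. RPS27L, known as a target of p53, had 204 and 210 in Ctr-KD cells and 268, 314 and 266 in NSD2-KD cells. All 3 NSD2-KD libraries lay above both Ctr-KD libraries, at 129%, 152% and 128% of the Ctr-KD mean, with a log2 difference of 0.44 (95% interval 0.16 to 0.73, unadjusted p = 0.00696 and adjusted p = 0.31 from limma). It was the only one of these genes with an unadjusted p under 0.05, and it did not pass the threshold.

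Gene lists of the same pathway were described by counts and medians. None of their members passed the limma threshold, against 0.053% of all tested genes lower and 0.0354% higher. Elongation factors and other TOP mRNAs, which share the pyrimidine start, had a median log2 difference of -0.01 over 18 tested genes, 9 positive and 9 negative. Their median level was 767, close to that of the ribosomal protein genes. Their differences had an SD of 0.196, against 0.080 for those genes. The SD of 0.196 includes the value of -0.72 for SNHG1, a gene far below that median level. An SD without SNHG1 is not given, so no difference in spread is read from these SDs. The lower and upper quartiles of the differences were -0.104 and 0.064, against -0.049 and 0.055 for the ribosomal protein genes. SNHG1, a host of small nucleolar RNAs, had the most negative value, with 62.9 and 71.0 against 48.8, 24.0 and 54.7 (log2 difference -0.72, and -0.37 without NSD2-2). The translation initiation factor EIF4B had the most positive, 0.17.

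Genes that make or regulate ribosomes had medians slightly below 0. For 46 ribosome biogenesis factors the median log2 difference was -0.05, with 17 positive and 29 negative, and the most negative was -0.33 for EBNA1BP2, a nucleolar factor of the large subunit. WDR12, which acts in the same pathway, had the most positive, 0.40, with 61.0 and 42.2 against 69.0, 68.8 and 64.4. Its value was 0.66 without Ctr-1 and 0.14 without Ctr-2. For 14 genes of RNA polymerase I, which transcribes the large ribosomal RNA precursor, the median was -0.14, with 4 positive and 10 negative. At an unadjusted limma p under 0.05, 3 of these 14 were lower and 2 higher. Of the biogenesis factors, 2 were lower and 0 higher. The shares of all tested genes were 4.99% lower and 4.19% higher. The polymerase subunit TWISTNB had 82.9 and 77.2 against 45.1, 54.6 and 31.2 (log2 difference -0.89, unadjusted p = 0.00655 and adjusted p = 0.303 from limma). POLR1C had 40.0 and 31.9 against 46.0, 51.3 and 55.6, a log2 difference of 0.50, which ran from 0.34 to 0.66 when 1 library was left out. For 17 genes of mTOR and S6 kinase signalling the median was -0.05. MTOR itself had 299 and 306 in Ctr-KD cells and 276, 97.2 and 242 in NSD2-KD cells (log2 difference -0.69, adjusted p = 0.645 from limma), lowest with NSD2-2 as RPS6 and RPL34 were, and the difference was -0.23 without NSD2-2. RPS6KA1 had the most positive value, 0.56, from 11 and 6 reads in Ctr-KD cells and 9, 10 and 21 in NSD2-KD cells. It ran from 0.21 without NSD2-3 to 0.90 without Ctr-1.

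Mitochondrial ribosomal proteins, which form the separate ribosome of mitochondria, had a median log2 difference of -0.05 over 76 tested genes, with 32 positive and 44 negative. Their differences had an SD of 0.213, at a median level of 70.4. MRPS9 had 56.2 and 58.6 in Ctr-KD cells and 56.1, 8.74 and 66.4 in NSD2-KD cells, so that its log2 difference of -0.80 rested on NSD2-2. MRPL51 was above both Ctr-KD libraries in all 3 NSD2-KD libraries, with 129 and 121 against 163, 168 and 185 (log2 difference 0.46, unadjusted p = 0.00793 and adjusted p = 0.321 from limma). The 6 tested pseudogene rows had a median of 0.14, from -0.04 for RPL13AP5 to 0.52 for RPL23AP7.

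**Figure D5:**
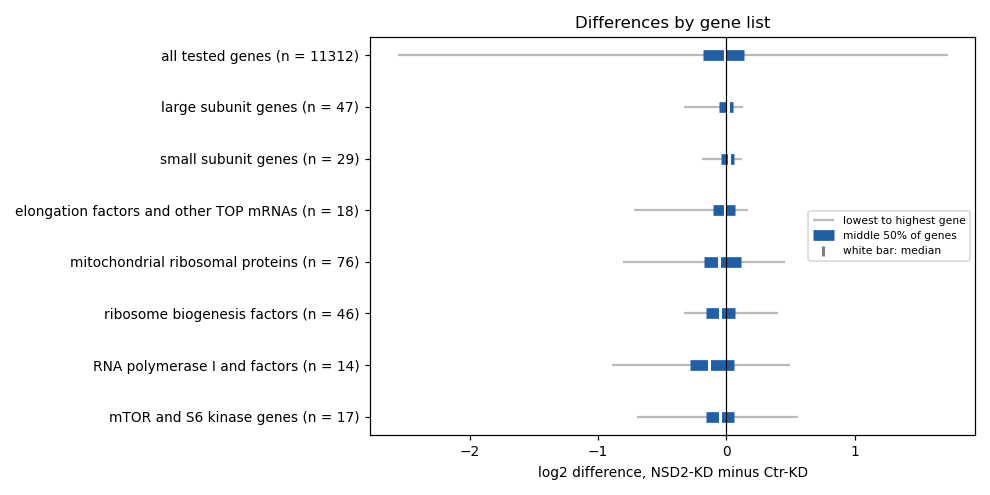
Log2 differences between NSD2-KD and Ctr-KD cells by gene list, with the full range (grey line), the middle 50% of genes (blue) and the median (white bar). Large and small subunit genes run from -0.33 to 0.13 and from -0.19 to 0.12, and all tested genes from -2.56 to 1.73.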

How the data were processed

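Messenger RNA of 5 IMR-90 libraries, 2 Ctr-KD and 3 NSD2-KD, was sequenced. The authors used HISAT2 for mapping to hg19, SAMtools to retain reads mapped to a single place, featureCounts for counting per gene, and DESeq2 size factors for normalization. The signal the authors deposited is this normalized count. The annotation and the strand setting are not given in the sources used here. A second table, with the authors' base means, fold changes, standard errors, Wald statistics and p-values, was not used.

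Divided by the smallest value of its library, 100% of values were whole within 0.01, which gave the reads per gene. Values were tested by limma 3.58.1 (R 4.3.3), two-sided and with the trend option, after adding 1 and taking log2. The 11312 genes with a mean of at least 10 were tested, p-values were adjusted over all of them by the Benjamini-Hochberg method, and the threshold was 0.05. This scale understates differences of low genes. With 2 and 3 libraries an exact permutation p is at least 0.1, so none is given. The fit was also run on simulated data with the same spread in both groups and changes larger than the differences of the members. That run therefore cannot speak for the unequal spread and small differences seen here. Alternatives included edgeR 4.0.16, DESeq2 1.42.0 and limma-voom on recovered reads. Symbols listed more than once (2) were left out, and some members or related genes are not reported here.

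The members and lists were chosen with earlier results of these data known. Named members are those past the threshold, the 6 largest differences in each direction, the 5 highest and 3 lowest per kilobase, and those picked by role. RPL36 and other members named beyond these were chosen by overlap between groups, spread or copies, after their values were seen. Lengths and positions are from GENCODE on GRCh37, the assembly of hg19, and copies were sought with BLAST 2.17.0.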

Additional observations from a re-analysis of the deposited data

How the results depend on the processing

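The count of ribosomal protein genes called was 0 in both directions under all 19 alternatives, in which between 0 and 102 genes were called in all. The smallest adjusted p of a member ran from 0.487 to 1.00. The median difference stayed within the replicate spread, between -0.018 and 0.035 for the large subunit and between 0.0033 and 0.050 for the small subunit when 1 library was left out. The share of normalized counts in NSD2-KD cells moved to 2.63% with pseudogene reads added and to 2.07% without the 5 members with the most reads, and the log2 ratio of the subunits to 0.93 and 0.37. The 5 members left out are all of the large subunit, so this fall of the ratio follows from leaving them out. The large subunit share was 1.62% in the main setting and 1.73% and 1.17% in these 2. The small subunit share was 0.904%, 0.905% and 0.904%. In Ctr-KD cells the same settings gave 2.64% and 2.07%, and 0.95 and 0.38.

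Of 866 values of 46 named genes, 842 kept their direction and side of the threshold. With length and GC trends removed, RPL11 (0.0077) and RPL14 (0.0085) turned positive, and with quantile normalization RPL3 (-0.047) and RPL10 (-0.020) turned negative. When 1 library was left out, values ran from -0.33 to 0.0059 for RPS6, -0.33 to 0.093 for RPL34, -0.038 to 0.036 for RPL11, -0.016 to 0.032 for RPSA, -0.047 to 0.052 for RPL3, -0.016 to 0.052 for RPL10 and -0.0051 to 0.083 for RPL37. They ran from -0.086 to 0.025 for GNB2L1, -0.065 to 0.13 for RPL7L1 and -1.31 to 0.087 for MRPS9. The cause was not tested. NSD2 (WHSC1) was past the threshold in every setting except without Ctr-1 (-2.34, adjusted p = 0.0928 from limma) or without Ctr-2 (-2.41, adjusted p = 0.0759), where 0 genes were called.

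With the replicate number as a block, limma called 102 genes in place of 10 and 0 members, and RPL11 (0.036), GNB2L1 (0.025) and RPL7L1 (-0.057) changed sign. The medians with the block were 0.04 and 0.05 for the large and the small subunit. Same-numbered libraries did not deviate together (correlations of -0.015 and -0.027), they share only a number, and this fit takes nothing from NSD2-3, which has no Ctr-KD library of its number.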
